A study of Mus musculus with 21 samples.

Results

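The miR-29 family of the mouse is a group of mature miRNAs from 4 hairpins, Mir29a, Mir29b-1, Mir29b-2 and Mir29c. Members were chosen by name, as every entry of the count table named miR-29a, miR-29b or miR-29c, of either hairpin arm, which gave 7 of 1647 mature miRNAs: mmu-miR-29a-3p, mmu-miR-29b-3p, mmu-miR-29c-3p, mmu-miR-29a-5p, mmu-miR-29b-1-5p, mmu-miR-29b-2-5p and mmu-miR-29c-5p, written below without the species prefix. Small RNA was sequenced from the cochlear sensory epithelium and from the superior olivary complex (SOC), an auditory relay of the brainstem, at embryonic day 16 (E16), on the day of birth (P0) and at postnatal day 16 (P16), after hearing onset. The comparisons ask how the members changed between these time points within each organ, and whether that change differed between the organs.

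All 21 libraries came from untreated wild type (WT) mice. The cochlear groups, from C57BL/6JOlaHsd mice, comprised 2 libraries of E16 and 4 each of P0 and P16. The SOC groups, from C57Bl6/J mice, comprised 4 libraries each of E16 and P0 and 3 of P16. Tissue of several animals of both sexes was pooled, so a library does not describe a single animal, and the libraries are bulk samples, in which fewer cells of a type and less RNA per cell cannot be told apart. RNA kit and library kit differed between the organs (Direct-zol and SMARTer smRNA-Seq for the cochlea, innuPREP and TruSeq Small RNA for the SOC), so organ, kit and mouse strain, which differed too, cannot be told apart in any comparison of the organs. Total counts ran from 124400 to 447419 in the cochlea and from 8309669 to 18053698 in the SOC. A single count was therefore worth 1.74 to 7.79 CPM (counts scaled to a common library total) after TMM scaling in the cochlea, and 0.0452 to 0.116 CPM in the SOC. All levels below are TMM-normalised CPM within an organ, and the p-values measure the spread between these pooled samples.

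A mature miRNA guides the Argonaute protein to messenger RNAs that pair with its seed, bases 2 to 8 from the 5′ end, and lowers their output. The 3p arm of the miR-29 hairpins is the arm usually loaded, and its best known targets are messenger RNAs of collagens and other matrix proteins and of the DNA methyltransferases. In the brain, miR-29 is known to accumulate as neurons mature. The 5p arm, the other strand of the hairpin, is usually the less stable one.

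The mature sequences are shown because the 3p members share a seed and differ in few other bases, whereas the 5p members each have a seed of their own. All 7 members matched the RefSeq table of build GRCm38.p6. Sequences are written 5′ to 3′, with the seed in capitals, and the 3p members come first.
miR-29a-3p: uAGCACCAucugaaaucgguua
miR-29b-3p: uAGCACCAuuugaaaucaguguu
miR-29c-3p: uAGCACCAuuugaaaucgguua
miR-29a-5p: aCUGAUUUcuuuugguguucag
miR-29b-1-5p: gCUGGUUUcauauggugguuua
miR-29b-2-5p: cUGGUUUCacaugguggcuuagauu
miR-29c-5p: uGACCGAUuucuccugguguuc

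Counted from 1 at the 5′ end of miR-29a-3p, miR-29c-3p differs from it by the single substitution C10U over the 22 bases of both. miR-29b-3p differs from miR-29a-3p by C10U, G18A, U21G and A22U over the shared 22 bases and has 23 bases in all. No mature miRNA outside the family carries the 3p seed among the 1679 mature sequences of the RefSeq table, while miR-29b-2-5p shares its seed with 1 other, miR-6338. How reads that fit several miRNAs were counted is not given in the sources used here, so the split of reads between miR-29a-3p and miR-29c-3p is uncertain. miR-29b-3p is made from both Mir29b-1 and Mir29b-2, and its reads name neither hairpin, whereas the 5p reads do.

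The hairpins lie in 2 pairs. On chromosome 6, on the minus strand, Mir29a (chr6:31062660-31062747) and Mir29b-1 (chr6:31063023-31063093) are 275 bases apart. On chromosome 1, on the plus strand, Mir29b-2 (chr1:195037040-195037120) and Mir29c (chr1:195037547-195037634) are 426 bases apart. In GENCODE vM21, Mir29b-1 overlaps an exon of the lincRNA Gm27019 on the same strand. Mir29b-2 and Mir29c both overlap exons of the processed transcript A330023F24Rik on the same strand and of the protein coding gene Cd46 on the opposite strand. GENCODE vM21 lists no gene other than Mir29a itself over the Mir29a hairpin.

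The labelled tissues were checked against marker miRNAs. The hair cell list (miR-96-5p, miR-182-5p and miR-183-5p, all 3 in the table) summed to 52240 and 55891 CPM in the E16 cochlea, 33753 to 38017 CPM at P0 and 16693 to 38412 CPM at P16, led by miR-183-5p. In the SOC the same list summed to 85041 to 164668 CPM at E16, 4392 to 28713 CPM at P0 and 521 to 3502 CPM at P16, so at E16 it did not set the cochlea apart from the SOC. The neuronal list (4 of 4 in the table) summed to 39582 to 117780 CPM in the SOC, led by miR-9-5p over all its libraries. In the cochlea it summed to 642 to 3328 CPM, led by miR-128-3p over all libraries together. At P16 miR-128-3p averaged 317 CPM of a mean list sum of 1273 CPM, so the lead does not hold at that age. The labels call the SOC samples neuronal and the cochlear ones sensory epithelium, and both lists were present in both organs.

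A miRNA was tested in an organ when 2 or more libraries of the same age exceeded 1 CPM of the library total, before TMM scaling. This held for 896 miRNAs and all 7 members in the cochlea, and for 694 miRNAs and 3 members (miR-29b-3p, miR-29b-2-5p and miR-29c-5p) in the SOC. A change was called at an adjusted p below 0.05, a fold change above 1.5 and separate ranges of the libraries of both ages.

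In the cochlea, the 3p arm of miR-29a nearly vanished at birth and was back at P16. In the E16 cochlea, miR-29a-3p stood at 473 and 462 CPM, from 174 and 266 counts. At P0 its 4 libraries held 32.1, 0, 51.4 and 0 CPM, from 6, 0, 8 and 0 counts. At P16 they held 1046, 607, 206 and 112 CPM, from 205, 78, 31 and 15 counts. Every P0 library thus lay below every library of E16 and P16, while the P16 libraries spread on both sides of the E16 pair. Where a library held 0 counts, up to 3 counts could have been missed, which is 14.5 CPM of the library total in P0 replicate 2 and 15.4 CPM in P0 replicate 4. Such floors, and the counting intervals below, cover counting error only, since the reads carry no molecular identifiers. By group, miR-29a-3p averaged 468 ± 7.57 CPM at E16 (SD, n = 2), 20.9 ± 25.4 CPM at P0 (n = 4) and 493 ± 427 CPM at P16 (n = 4). By mean level it ranked 127, 376 and 97 of the 1647 miRNAs at these ages.

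From E16 to P0, miR-29a-3p fell by 4.53 on the log2 scale (SE 0.53, adjusted p = 2.78e-15, edgeR quasi-likelihood test with Benjamini-Hochberg adjustment), a 23.0-fold lower level. From P0 to P16, miR-29a-3p rose by 4.61 (SE 0.50, adjusted p = 5.47e-18, edgeR), a 24.4-fold higher level. Pooled counts gave a level 24.3-fold lower at P0 than at E16 (95% counting interval 14.3 to 44.8) and 28.1-fold higher at P16 than at P0 (16.5 to 51.9). Over the alternative fits the adjusted p of miR-29a-3p ran from 6.24e-17 to 0.00899 for the fall and from 1.66e-20 to 0.000741 for the rise, with DESeq2 at the upper end of both. Without P0 replicate 3, the library with 8 counts, miR-29a-3p fell by 5.41 and rose by 5.50 on the log2 scale, and without P16 replicate 1 the rise was 3.83. Between E16 and P16 the log2 difference of miR-29a-3p was 0.09 (SE 0.46, 95% interval -0.82 to 0.99, adjusted p = 0.920, edgeR). That difference took the other sign, -0.46, with library totals in place of TMM factors, and -0.71 without P16 replicate 1.

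**Figure D1:**
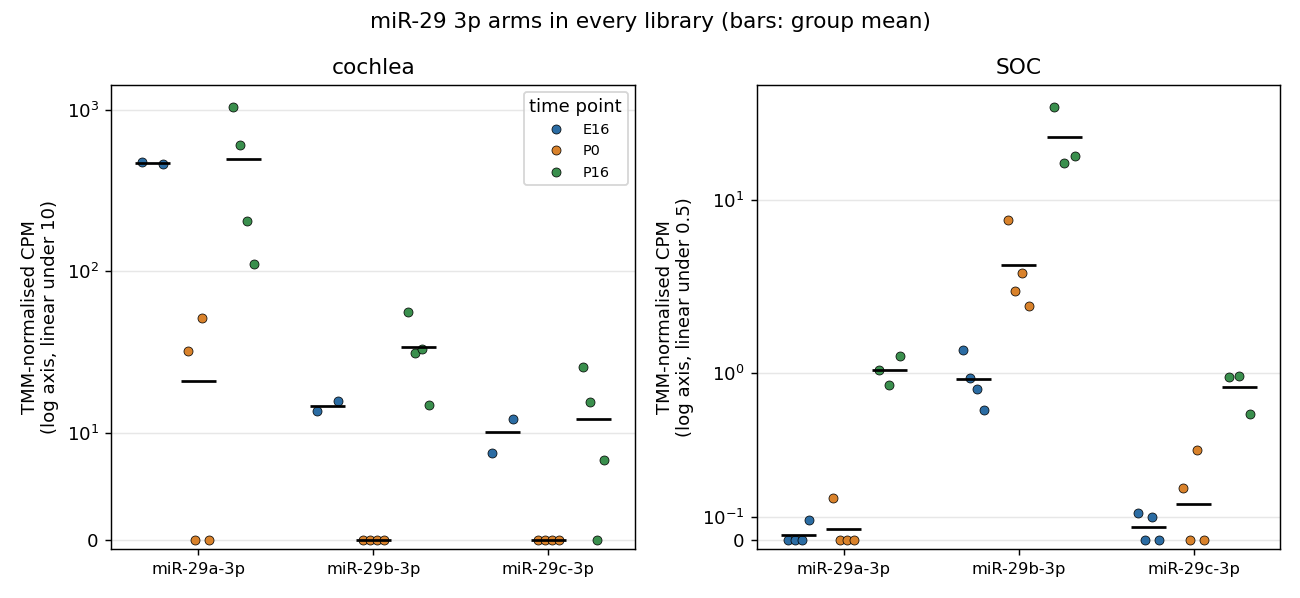
Level of each 3p member in every library, in TMM-normalised CPM on a log axis that is linear near 0, by organ and time point; points are libraries and bars are group means. miR-29a-3p drops to a mean of 20.9 CPM in the P0 cochlea, and miR-29b-3p climbs to a mean of 23.1 CPM in the P16 SOC.

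miR-29b-3p, which shares the 3p seed printed above, took the same course in the cochlea at a far lower level. It held 13.6 and 15.6 CPM at E16, from 5 and 9 counts, and 0 counts in all 4 P0 libraries. At P16 it held 56.1, 31.1, 33.2 and 14.9 CPM, from 11, 4, 5 and 2 counts. All P0 libraries were thus below all others, and the lowest P16 library lay between the E16 libraries. Against a floor of 3 counts over the P0 group, miR-29b-3p was at least 3.60-fold lower at P0 than at E16 and at least 8.76-fold higher at P16 than at P0. Both changes were called by edgeR, with adjusted p of 0.0203 (0.00733 to 0.0869 over the alternatives) and 0.000954 (0.000437 to 0.00862). The call of the fall of miR-29b-3p was lost when E16 replicate 1 (adjusted p = 0.0536), E16 replicate 2 (0.0713), P0 replicate 2 (0.0531) or P0 replicate 4 (0.0519) was left out of the edgeR fit. With the replicate number as a block, the fall was not called either (log2 difference -4.49, adjusted p = 0.0869, edgeR). Between E16 and P16 the log2 difference of miR-29b-3p was 1.21 (SE 1.02, adjusted p = 0.349, edgeR).

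miR-29c-3p, 1 base from miR-29a-3p, had 3 and 7 counts at E16, 0 in all 4 P0 libraries, and 5, 2, 0 and 1 counts at P16. Its P0 libraries lay below the E16 libraries and overlapped the P16 libraries at 0. It was at least 2.57-fold lower at P0 than at E16 and at least 3.19-fold higher at P16 than at P0, and neither passed (adjusted p = 0.0564 and 0.0538, edgeR). Over the alternatives the adjusted p of miR-29c-3p ran from 0.0287 to 0.330 and from 0.0348 to 0.223. When miR-29a-3p and miR-29c-3p were summed, the log2 differences were -4.60 for P0 against E16 and 4.66 for P16 against P0, close to those of miR-29a-3p alone.

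Of the 5p arms in the cochlea, only miR-29b-2-5p was called, and only toward P16. miR-29b-2-5p, the strand opposite miR-29b-3p in the Mir29b-2 hairpin, held 10.9 and 1.74 CPM at E16. It held 21.4, 19.5, 0 and 16.6 CPM at P0 and 128, 70.1, 39.9 and 89.3 CPM at P16. All 4 P16 libraries were above all others, and the E16 and P0 libraries overlapped. Group means of miR-29b-2-5p were 6.31 ± 6.46 CPM at E16, 14.4 ± 9.79 CPM at P0 and 81.7 ± 36.7 CPM at P16 (SD, n = 2, 4 and 4). It rose by 3.74 on the log2 scale from E16 to P16 (SE 0.95, adjusted p = 0.000553, 0.000323 to 0.0974 over the alternatives) and by 2.43 from P0 to P16 (SE 0.72, adjusted p = 0.00715, 0.00405 to 0.0634), both in edgeR. Between E16 and P0 its log2 difference was 1.31 (SE 1.01, adjusted p = 0.340, edgeR). Without E16 replicate 1 that difference was 2.77, and without E16 replicate 2 it was 0.32. The first rise of miR-29b-2-5p was 2.68 without E16 replicate 2 (adjusted p = 0.0974, edgeR, not called) and 5.14 without E16 replicate 1, and the other was 2.09 without P16 replicate 1 (adjusted p = 0.0634, edgeR, not called).

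miR-29c-5p, from the Mir29c hairpin beside Mir29b-2, held 29.9 and 12.2 CPM at E16, 5.35, 19.5, 0 and 16.6 CPM at P0, and 56.1, 70.1, 46.5 and 14.9 CPM at P16. The groups overlapped at each step, and no comparison of miR-29c-5p was called with all libraries. Its log2 differences were -0.89 for P0 against E16, 1.18 for P16 against E16 and 2.07 for P16 against P0 (adjusted p = 0.502, 0.288 and 0.0758, edgeR). Without P16 replicate 4 the last of these was 2.32 and was called (adjusted p = 0.0416, edgeR). Without E16 replicate 1 the differences from E16 were -0.12 at P0 and 1.83 at P16. Without E16 replicate 2 they were -1.53 and 0.42. miR-29a-5p had 0 to 2 counts and miR-29b-1-5p 0 to 4 counts in any cochlear library, and neither was called in any comparison (adjusted p from 0.199 to 0.976, edgeR). Counts this low give no direction for either of them. Whether the 5p and 3p courses differ was not tested in the cochlea.

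**Figure D2:**
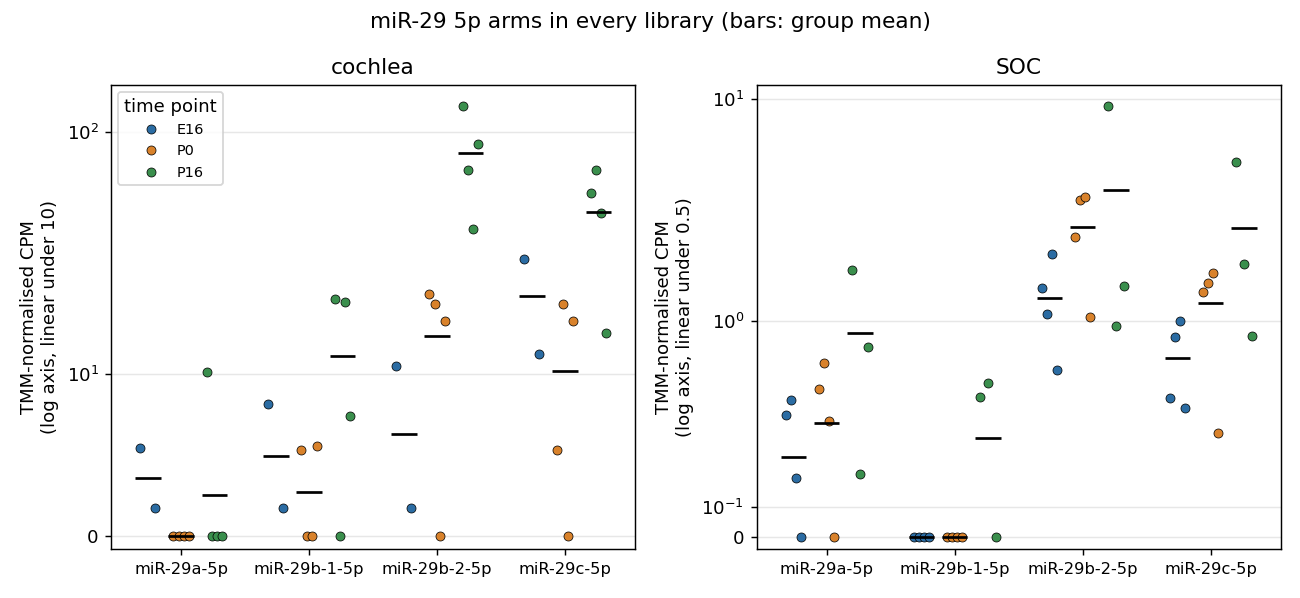
Level of each 5p member in every library, in TMM-normalised CPM on a log axis that is linear near 0, by organ and time point; points are libraries and bars are group means. miR-29b-2-5p rises to a mean of 81.7 CPM in the P16 cochlea, while its SOC libraries overlap between the ages.

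Set against all miRNAs tested in the cochlea, 2 of 7 members were called lower at P0 than at E16 (16.6% of the 896 tested) and 0 of 7 higher (7.81%). By edgeR 3 members had an unadjusted p below 0.05 in that comparison, all of them lower, and DESeq2 also called 2 lower and 0 higher. At P16 against E16, 1 of 7 was called higher (10.9%) and 0 of 7 lower (18.6%), with 1 member at an unadjusted edgeR p below 0.05 and 0 called lower by DESeq2. At P16 against P0, 3 of 7 were called higher (3.91%) and 0 of 7 lower (6.58%), with 5 members at an unadjusted edgeR p below 0.05, all higher, and 0 called lower by DESeq2. The median log2 difference of all tested miRNAs was 0, -0.09 and 0.05 in the 3 comparisons. With library totals in place of TMM factors these medians shifted by -0.38 for P0 against E16 and by -0.50 for P16 against E16. The course of lower at P0 and then higher at P16 was called for 18 of 896 miRNAs (2.01%), among them miR-29a-3p and miR-29b-3p.

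The other 16 miRNAs with this course included miR-126a-3p, known from endothelial cells, with log2 differences of -2.60 and 1.92 at the 2 steps. miR-223-3p, known from myeloid cells, had -2.67 and 1.34, miR-124-3p, known from neurons, -3.03 and 1.94, and miR-140-5p, known from cartilage, -2.69 and 2.14. miR-128-3p, also of the neuronal list, had -1.60 and -0.16 and did not take this course. Larger steps were seen for miR-101b-3p (-4.39 and 2.84), miR-24-2-5p (-2.75 and 4.34) and miR-22-5p (-1.88 and 3.90). The rest were miR-22-3p, miR-384-5p, miR-148a-3p, miR-1a-3p, miR-30b-5p, miR-140-3p, miR-146b-5p, miR-3071-3p and miR-3074-5p. Over the 10 cochlear libraries and the 242 candidates of at least 100 CPM, the log2 level most like that of miR-29a-3p was that of miR-30b-5p (Pearson r = 0.942, Spearman rho = 0.952), then miR-140-3p (0.856 and 0.915) and miR-126a-3p (0.844 and 0.794). Within the family, Pearson r and Spearman rho with miR-29a-3p were 0.808 and 0.879 for miR-29b-3p and 0.760 and 0.903 for miR-29c-3p. They were 0.476 and 0.624 for miR-29c-5p, 0.219 and 0.539 for miR-29a-5p, 0.188 and 0.321 for miR-29b-2-5p, and 0.171 and 0.212 for miR-29b-1-5p. These correlations are descriptions over libraries that share time points and depth.

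The sum of the blood list (4 of its 5 miRNAs in the table), most of it miR-223-3p, was lowest at P0 in the cochlea, as was miR-29a-3p. It summed to 1522 and 1709 CPM at E16, to 193, 273, 231 and 238 CPM at P0, and to 760, 693, 518 and 364 CPM at P16. At P16 replicate 1 was the highest and replicate 4 the lowest library for the list and for miR-29a-3p alike. Within the other ages the order was not shared: P0 replicate 2 had the highest list sum of its age and 0 counts of miR-29a-3p, P0 replicate 1 the lowest sum and 32.1 CPM, and the E16 library with the higher sum had the lower miR-29a-3p. On average miR-223-3p, named above for this course, made up 1448 of 1615 CPM at E16, 228 of 234 CPM at P0 and 575 of 584 CPM at P16. Its adjusted p was 7.12e-09 for the fall and 0.00336 for the rise (edgeR). The red cell miRNAs miR-451a and miR-144-3p had 0 counts in every P0 and P16 library. Of 3 list members tested, 3 were lower at P0 than at E16, 3 lower at P16 than at E16, and 1 higher at P16 than at P0. Their part in the course of miR-29a-3p was not tested.

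**Figure D3:**
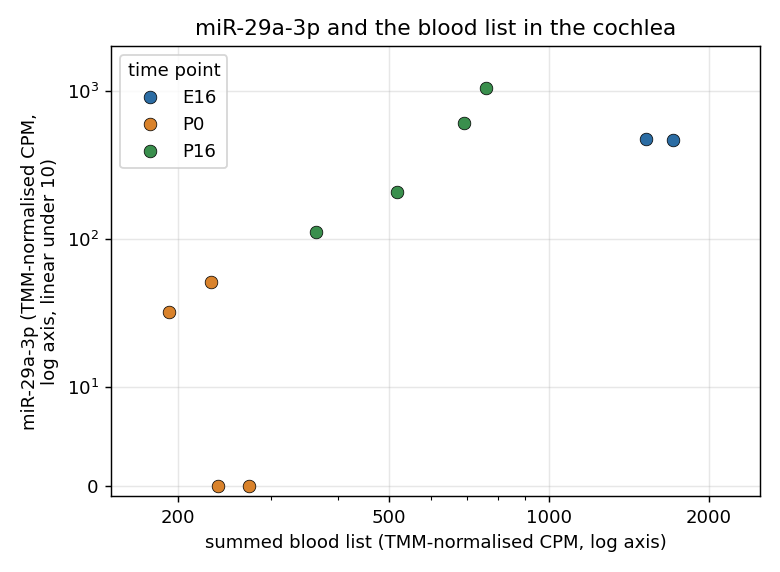
Summed level of the blood list against the level of miR-29a-3p in the 10 cochlear libraries, both in TMM-normalised CPM, 1 point per library; drawn after the values were seen. The P0 libraries, at 193 to 273 CPM of the list, hold the lowest miR-29a-3p levels.

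Other marker lists moved in the cochlea as well, and their part in the results on miR-29 was not tested. The neuronal list summed to 3328 and 2828 CPM at E16, 1236, 746, 642 and 936 CPM at P0, and 1108, 1090, 1594 and 1302 CPM at P16. Of its 4 miRNAs, 3 were lower at P0 than at E16, 2 were higher at P16 than at P0, and 1 was higher and 3 lower at P16 than at E16. The muscle list (4 of 5 in the table, 2 tested), led by miR-1a-3p, summed to 473 and 549 CPM at E16, 218 to 478 CPM at P0 and 1098 to 4297 CPM at P16, with miR-133a-3p at 0 in every cochlear library. miR-1a-3p fell by 1.08 and then rose by 3.73 on the log2 scale (adjusted p = 0.0374 and 2.71e-20, edgeR). The epithelial list (7 of 7), led by miR-429-3p, had 3 members lower at P0 and 3 lower at P16 than at E16, and 1 lower at P16 than at P0. The mesenchymal list (5 of 6), led by miR-214-3p, had 1 higher and 2 lower at P0 than at E16, 1 higher and 3 lower at P16 than at E16, and 1 lower at P16 than at P0, and its sum averaged 49237, 66959 and 20142 CPM at the 3 ages. None of the 3 hair cell miRNAs was called between any cochlear time points by edgeR. The oligodendrocyte list (3 of 4, 2 tested), led by miR-338-5p in the cochlea, had both tested members higher at P16 than at E16 and than at P0. The let-7 list had 3 of 9 tested members higher at P0 than at E16, 3 higher at P16 than at E16 and 1 higher at P16 than at P0.

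In the SOC the leading 3p member was miR-29b-3p, and it rose at each step. At E16 miR-29b-2-5p stood above it (mean 1.27 CPM), and at P0 and P16 miR-29b-3p was the highest of the family. It held 1.35, 0.926, 0.800 and 0.608 CPM at E16, from 23, 12, 8 and 7 counts. At P0 it held 7.69, 2.96, 3.76 and 2.44 CPM, from 170, 32, 48 and 21 counts, and at P16 34.8, 16.4 and 18.0 CPM, from 370, 155 and 188 counts. No libraries of different ages overlapped, and replicate 1 was the highest at each age. Group means were 0.920 ± 0.314 CPM at E16 (SD, n = 4), 4.21 ± 2.38 CPM at P0 (n = 4) and 23.1 ± 10.2 CPM at P16 (n = 3), or rank 613, 454 and 278 of the 1647 miRNAs.

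miR-29b-3p rose in the SOC by 2.18 on the log2 scale from E16 to P0 (SE 0.49, adjusted p = 0.0227, edgeR), with 0.000141 to 0.365 over the alternatives. It rose by 2.44 from P0 to P16 (SE 0.50, adjusted p = 0.00697, edgeR, 6.26e-05 to 0.183 over the alternatives). From E16 to P16 the rise of miR-29b-3p was 4.62 (SE 0.55, adjusted p = 0.000126, edgeR, 2.21e-15 to 0.0192 over the alternatives), a 24.6-fold higher level. Pooled counts gave ratios of 5.15 (95% counting interval 3.79 to 7.11), 4.68 (4.06 to 5.40) and 24.1 (18.1 to 32.8) for these comparisons. The call of the first step of miR-29b-3p was lost without E16 replicate 2 (adjusted p = 0.0735, edgeR), E16 replicate 3 (0.0700) or E16 replicate 4 (0.0536).

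The SOC libraries fell into 3 sets by the share of single miRNAs, and the labels do not say what the sets are. In set A (E16 replicates 2 and 3, P0 replicates 2 and 3) miR-99b-5p made up 17.2% to 19.6% of all counts, against 1.43% to 3.84% elsewhere in the SOC. In set C (P0 replicate 4, P16 replicates 2 and 3) miR-191-5p made up 0.277% to 0.322%, against 3.84% to 8.15% elsewhere in the SOC, and set B holds the rest. Within set A, miR-29b-3p went from 0.926 and 0.800 CPM at E16 to 2.96 and 3.76 CPM at P0. Within set B it went from 1.35 and 0.608 CPM at E16 to 7.69 CPM at P0 and 34.8 CPM at P16. Within set C it went from 2.44 CPM at P0 to 16.4 and 18.0 CPM at P16, so it was higher at the later age within every set. With the set as a covariate in edgeR, the log2 differences of miR-29b-3p were 2.37, 2.62 and 4.98 for P0 against E16, P16 against P0 and P16 against E16 (adjusted p = 0.000141, 0.000121 and 5.28e-07). Without set A the calls of both single steps were lost (2.36 with adjusted p = 0.365, and 2.17 with 0.183, edgeR).

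**Figure D4:**
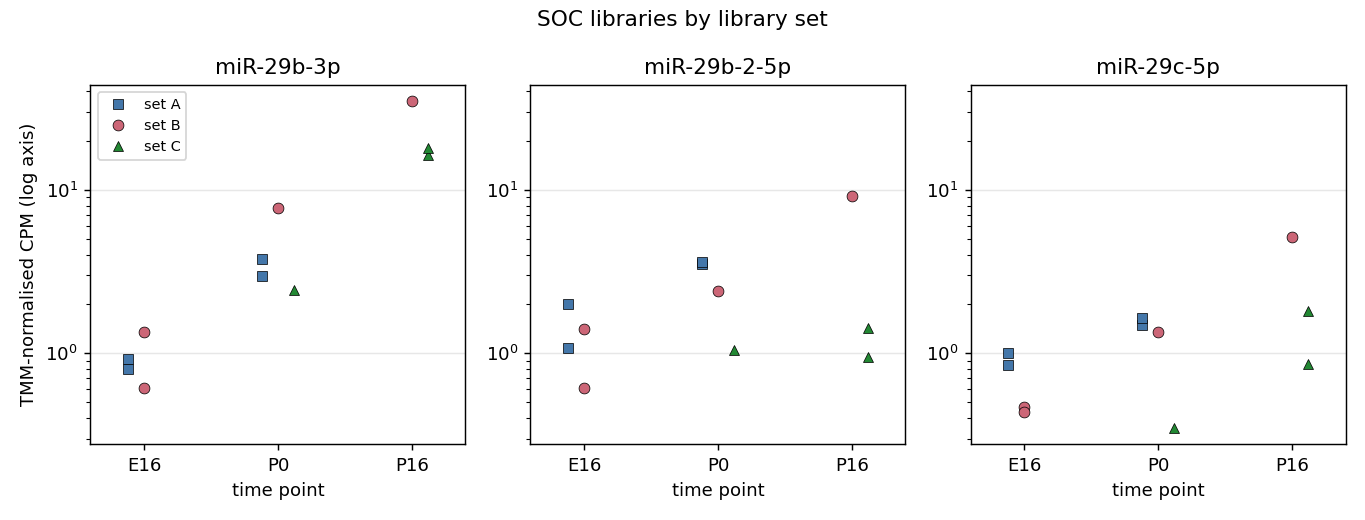
Level of the 3 members tested in the SOC, in TMM-normalised CPM on a log axis, by time point, with the library set marked by colour and shape; 1 point per library. Within set B miR-29b-3p climbs from 1.35 and 0.608 CPM at E16 to 34.8 CPM at P16.

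The 2 other members tested in the SOC did not pass. miR-29b-2-5p held 1.41, 1.08, 2.00 and 0.608 CPM at E16, 2.40, 3.52, 3.60 and 1.05 CPM at P0, and 9.22, 0.954 and 1.44 CPM at P16. P16 replicate 1 was far above the other P16 libraries, which lay within the E16 range. Its log2 differences were 1.05 for P0 against E16, 1.60 for P16 against E16 and 0.55 for P16 against P0 (adjusted p = 0.426, 0.105 and 0.631, edgeR). Without P16 replicate 1 the last of these was -1.06 and the difference between E16 and P16 was 0.05 (adjusted p = 0.952, edgeR). Without set C only P16 replicate 1, the far library, is left at that age and is assumed to vary like the other groups, and the difference of miR-29b-2-5p between E16 and P16 was then 3.02 (adjusted p = 0.00222, edgeR), called on that library alone. With the set as a covariate, the log2 difference of miR-29b-2-5p for P16 against E16 was 2.66 (adjusted p = 0.000804, edgeR, 0.000804 to 0.952 over the alternatives). For P0 against E16 it was then 1.41 (adjusted p = 0.0260, edgeR). The libraries overlapped in both comparisons, and neither was called.

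miR-29c-5p held 0.469, 0.849, 0.999 and 0.434 CPM at E16, 1.36, 1.48, 1.65 and 0.349 CPM at P0, and 5.17, 1.80 and 0.862 CPM at P16. The highest E16 library lay above the lowest P16 library. Its log2 difference between E16 and P16 was 1.92 (adjusted p = 0.0398, edgeR, 0.000283 to 0.236 over the alternatives), not called because of this overlap. For miR-29c-5p it was 1.06 without P16 replicate 1 (adjusted p = 0.236, edgeR), 3.08 without set C (adjusted p = 0.00240, edgeR), which again leaves P16 replicate 1 alone, and 2.38 without P16 replicate 3, the overlapping library (adjusted p = 0.0222, edgeR); both were then called. With the set as a covariate it was 3.19 (adjusted p = 0.000283, edgeR), with the same overlap. Neither P0 against E16 nor P16 against P0 was called for miR-29c-5p (0.83 and 1.09, adjusted p = 0.504 and 0.261, edgeR). P16 against P0 was 2.09 with the set as a covariate (adjusted p = 0.00646, edgeR), with overlapping libraries and not called. Without P16 replicate 1 it was 0.18 (adjusted p = 0.871, edgeR).

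The 4 members below this filter in the SOC included miR-29a-3p, the leading member in the cochlea, whose P16 libraries held 0.857, 0.963 and 1.31 CPM of the library total, or 1.03, 0.848 and 1.24 CPM with TMM factors. It had 0, 0, 0 and 1 counts at E16, 4, 0, 0 and 0 counts at P0, and 11, 8 and 13 counts at P16. All P16 libraries were above all earlier ones. With no filter, miR-29a-3p was called higher at P16 than at E16 (log2 difference 5.05, adjusted p = 0.00873, edgeR) and not higher than at P0 (3.76, adjusted p = 0.0530, edgeR). Pooled counts of miR-29a-3p gave a P16 level 54.1 times that of E16 (95% counting interval 9.03 to 2201) and 14.2 times that of P0 (5.05 to 55.4). miR-29c-3p had 2, 0, 1 and 0 counts at E16, 5, 0, 5 and 0 counts at P0, and 10, 9 and 6 counts at P16, a ratio of 14.1 between P16 and E16 (4.30 to 72.8), called with no filter (3.61, adjusted p = 0.0437, edgeR). Summed, miR-29a-3p and miR-29c-3p rose by 4.43 on the log2 scale from E16 to P16 (adjusted p = 0.00403, edgeR) and by 3.00 from P0 to P16 (adjusted p = 0.0328, edgeR). miR-29b-1-5p had 0 counts at E16 and P0 and 5, 5 and 0 counts at P16, at least 5.63-fold higher at P16 than at E16 by the floor of 3 counts, and not called with no filter (adjusted p = 0.0540, edgeR). miR-29a-5p had 7, 6, 2 and 0 counts at E16, 11, 7, 5 and 0 counts at P0 and 18, 2 and 8 counts at P16, with overlapping groups.

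Set against all miRNAs tested in the SOC, 1 of 3 members was called higher at P0 than at E16 (2.45% of the 694 tested) and 0 of 3 lower (4.18%). At P16 against E16, 1 of 3 was called higher (21.2%) and 0 of 3 lower (20%). At P16 against P0, 1 of 3 was called higher (8.07%) and 0 of 3 lower (8.07%). By edgeR 1, 2 and 1 members had an unadjusted p below 0.05 in these comparisons, all of them higher, and DESeq2 called 0 lower in each. miR-29b-3p and miR-29c-5p passed the filter at P0 and P16 only. At E16 they held 0.683 to 1.27 and 0.443 to 0.854 CPM of the library total. Against E16 the filter thus favoured higher levels of these members, and the absence of lower calls there says little. The median log2 difference of all tested miRNAs was 0.17, 0.08 and -0.15, and library totals shifted the first of these by 0.12. A rise at both steps was called for 5 of 694 miRNAs (0.72%): miR-29b-3p, miR-132-3p, miR-212-5p, miR-150-5p and miR-871-3p. miR-132-3p, known as induced by neuronal activity, had log2 differences of 1.46 and 1.81 at the 2 steps.

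Over the 11 SOC libraries and the 175 candidates of at least 100 CPM, the log2 levels most like that of miR-29a-3p were those of miR-338-5p (Pearson r = 0.970, Spearman rho = 0.818), miR-150-5p (0.918 and 0.791) and miR-151-5p (0.917 and 0.555). As miR-29a-3p is at 0 in most of the earlier SOC libraries, miR-29b-3p was used as a reference too, chosen with its values already known. Most like miR-29b-3p were miR-412-5p (0.964 and 0.945), miR-1839-5p (0.950 and 0.900) and miR-330-5p (0.943 and 0.955).

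The oligodendrocyte list, like miR-29b-3p, was highest at P16 in the SOC. It summed to 412, 389, 445 and 493 CPM at E16, 475, 445, 448 and 221 CPM at P0, and 9118, 3600 and 5177 CPM at P16, led by miR-219a-2-3p (log2 difference 3.30 between E16 and P16, adjusted p = 0.000248, edgeR). All 3 of its miRNAs in the table were called higher at P16 than at E16 and than at P0, and P16 replicate 1 was the highest library for the list and for miR-29b-3p. Their part in the rise of miR-29b-3p was not tested. Of the neuronal list, miR-124-3p and miR-138-5p of 4 were higher at P16 than at E16, while the most abundant, miR-9-5p, had a log2 difference of -2.02 (adjusted p = 0.0360, edgeR, overlapping and not called) and the list sum averaged 74009 CPM at E16 and 49239 CPM at P16. Of the let-7 list, 5 of 9 were higher at P16 than at E16. All 3 hair cell miRNAs, 3 of 4 epithelial, 2 of 4 mesenchymal and 1 of 3 muscle miRNAs tested were lower at P16 than at E16. Of the blood list, 1 of 4 was higher and 1 lower.

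The makeup of the 3p arm differed between the organs. Of the pooled 3p counts of the family in the cochlea, miR-29a-3p made up 94.8% of 464 at E16 (95% interval 92.4% to 96.5%), 100% of 14 at P0 (78.5% to 100%) and 91.6% of 359 at P16 (88.3% to 94.1%). In the SOC, miR-29b-3p made up 92.6% of 54 at E16 (82.4% to 97.1%), 95.1% of 285 at P0 (91.9% to 97.1%) and 92.6% of 770 at P16 (90.5% to 94.2%). Most 3p counts thus came from miR-29a-3p in the cochlea and from miR-29b-3p in the SOC at all ages. Both members carry the same seed, and organ, kit and strain cannot be told apart here. How reads that fit several miRNAs were counted is not known either. Low counts of miR-29a-3p and miR-29c-3p in the SOC thus need not mean low levels. In the let-7 list, let-7d-5p averaged 742 of a mean sum of 830 CPM in the E16 SOC. In the E16 cochlea it averaged 11562 of 33961 CPM. The part of read counting in the makeup was not tested. This makeup was not tested between time points. The ratios of miR-29c-3p to miR-29a-3p and of miR-29b-1-5p to miR-29b-2-5p were compared by exact permutation over libraries, and 0 of 12 comparisons had an adjusted p below 0.05 (0.400 to 0.886, Benjamini-Hochberg), with 0 at an unadjusted exact p below 0.05 (smallest 0.0857) and no other tool run. The smallest exact p that could be reached was 0.0667 in the 4 cochlear comparisons with E16 and 0.0286 in the other 8, so these tests could hardly pass and say little on whether the ratios changed.

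**Figure D5:**
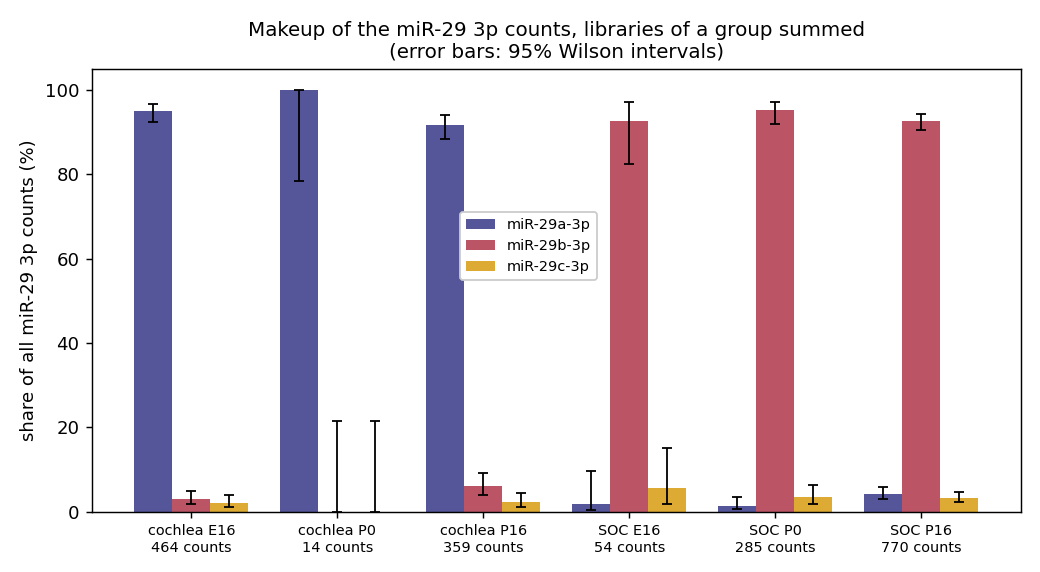
Share of each 3p member in the pooled 3p counts of the family, in percent, by organ and time point; error bars are 95% Wilson intervals. miR-29a-3p makes up 91.6% to 100% in the cochlea and miR-29b-3p 92.6% to 95.1% in the SOC.

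The balance of the arms was described from pooled counts, with intervals that cover counting error and not the spread between libraries. The 3p arm held 93.9% of all miR-29 counts in the E16 cochlea (95% interval 91.5% to 95.7%), 40% at P0 (25.6% to 56.4%, 14 counts of 3p against 21 of 5p) and 79.8% at P16 (75.8% to 83.2%). The 4 P0 libraries by themselves stood at 50%, 0%, 100% and 0%, so the pooled share at P0 rests on few reads that are split unevenly. The E16 libraries stood at 90.1% and 96.6%, and the P16 libraries at 84.0%, 82.4%, 69.2% and 54.5%. In the SOC it held 32.1% at E16 (25.5% to 39.5%), 54.4% at P0 (50.1% to 58.6%) and 76.2% at P16 (73.4% to 78.7%). By library the SOC shares were 39.1%, 27.9%, 22.0% and 40% at E16, 65.6%, 34.4%, 42.4% and 63.6% at P0, and 69.0%, 83.9% and 86.6% at P16, so E16 and P0 overlapped and P0 replicate 1 gave 179 of the 285 3p counts of its age. The summed 3p level in the cochlea averaged 492 CPM in E16, 20.9 CPM in P0 and 539 CPM in P16 libraries, and the summed 5p level 35.9, 27.5 and 143 CPM. In the SOC the 3p sum averaged 0.996, 4.41 and 24.9 CPM, and the 5p sum averaged 2.23, 4.23 and 7.71 CPM. The last of these rests on P16 replicate 1, with 16.6 CPM against 3.50 and 3.06 CPM in the other P16 libraries, both below the P0 mean.

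Arm ratios were tested with limma on log2 ratios of the counts, for pairs with a mean of at least 5 counts in both arms. In the cochlea 106 of 666 listed pairs met this and none of the 4 miR-29 pairs did. In the SOC 260 pairs met it, and of the miR-29 pairs only miR-29b-3p with miR-29b-2-5p, which is not the ratio of a single hairpin since Mir29b-1 also makes miR-29b-3p. The log2 ratio averaged -0.39 ± 0.60 at E16, 0.67 ± 0.91 at P0 and 3.18 ± 1.12 at P16 (SD, n = 4, 4 and 3). The ratio of miR-29b-3p to miR-29b-2-5p was higher at P16 than at E16 by 3.57 on the log2 scale (SE 0.70, adjusted p = 0.00947, limma, 0.00242 to 0.0675 over the alternatives), an 11.9-fold higher ratio, called beside 12.3% of the 260 pairs. The call was lost without P16 replicate 2 (3.14, adjusted p = 0.0675, limma), and the difference was 4.20 without P16 replicate 1. With the library set as a covariate it was 2.50 (adjusted p = 0.0167, limma, called), and at P16 the log2 ratio stood at 1.91 in the set B library and at 4.03 and 3.60 in the set C libraries. At P16 against P0 the difference was 2.52 (adjusted p = 0.0673, limma, 0.0228 to 0.278 over the alternatives), with 2.31% of pairs called. It was called without P0 replicate 4 (2.69, adjusted p = 0.0257, limma) and without P16 replicate 1 (3.15, adjusted p = 0.0228, limma). With the library set as a covariate it was 1.68 (adjusted p = 0.0683, limma, not called). At P0 against E16 it was 1.05 (adjusted p = 0.884, limma), where limma called 0 of the 260 pairs (0%), with 12 at an unadjusted p below 0.05, and no other tool was run.

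The change of the organs was compared directly for the 545 miRNAs tested in both, among them 3 members. From E16 to P0, miR-29b-3p rose in the SOC and fell in the cochlea, a difference of 9.62 in the fitted log2 changes (SE 1.92, adjusted p = 0.00240, edgeR, 0.000185 to 0.00966 over the alternatives), with 11.9% of the 545 called. With 0 counts of miR-29b-3p in the P0 cochlea, the size of this fitted value is no bound, and DESeq2 gave 5.96. From E16 to P16 miR-29b-3p rose in the SOC and had no called change in the cochlea (1.21, adjusted p = 0.349, edgeR). Its change was higher in the SOC by 3.15 (SE 0.95, adjusted p = 0.0270, edgeR, 0.00513 to 0.0936 over the alternatives), with 16.9% called. This call was lost without cochlea E16 replicate 2 (adjusted p = 0.0936, edgeR), SOC E16 replicate 3 (0.0522) or SOC P16 replicate 3 (0.0551). From P0 to P16 the difference of miR-29b-3p was -6.47 and not called (adjusted p = 0.0903, edgeR, 0.0428 to 0.173 over the alternatives), with 6.42% called. It rests on the same P0 libraries at 0 counts, so its size is no bound either, and DESeq2 gave -2.89. Neither miR-29b-2-5p nor miR-29c-5p was called in these comparisons, though without SOC P16 replicate 1 miR-29b-2-5p was, with -3.90 from E16 to P16 (adjusted p = 0.0229, edgeR) and -3.48 from P0 to P16 (0.0273).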

How the data were processed

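The values are mature miRNA counts per library that the authors deposited for 21 samples, made with Bowtie2 2.2.5 against mm10 according to their notes, which also name DESeq2, with no role in these counts. The study's methods name Bowtie and MirGeneDB sequences instead, and which of these made the counts, and so how reads of near-identical members were split, is not settled here. The table has 0 columns of no sample. Members and marker lists (neuronal, oligodendrocyte, hair cell, epithelial, mesenchymal, blood, muscle, let-7) were chosen with earlier results of these data known. Each organ was fitted with edgeR 4.0.16 in R 4.3.3 (TMM factors, quasi-likelihood F test, prior count 2, Benjamini-Hochberg adjustment over all tested miRNAs), on miRNAs that exceeded 1 CPM of the library total in 2 or more libraries of the same age. DESeq2 1.42.0 was the alternative. Arm ratios used limma 3.58.1 with a pseudocount of 0.5, and member ratios an exact permutation. Named miRNAs outside the family are those with the same called course, the 3 most alike in level and the leading list members. The scripts were run on simulated counts with the same spread for every miRNA and no library sets. That run does not cover the spread seen between these libraries. In the SOC, deviations of same-numbered E16 and P0 libraries correlated at over 0.1 for all 4 numbers (0.251 to 0.490). So did 2 of 12 differently numbered pairs, both within set A (0.255 and 0.409). Sets A and B partly share these numbers, so number and set cannot be told apart, and no pairing is established. In no other pair of groups did all numbers pass.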

Additional observations from a re-analysis of the deposited data

Results flagged for a closer look

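Of 23 groups examined, 3 held a library far from the others, and chance flags about 1 in 20 groups. In all 3 the other libraries were at 0, where any read at all is flagged, so that rate does not hold for them. miR-29a-3p was at 0.0869 CPM (1 count) in SOC E16 replicate 4 and at 0 in the other E16 libraries. miR-29a-3p was at 0.181 CPM (4 counts) in SOC P0 replicate 1 and at 0 in the other P0 libraries. miR-29a-5p was at 10.2 CPM (2 counts) in cochlea P16 replicate 1 and at 0 in the other P16 libraries.

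The change of miR-29b-3p differed between the organs by the edgeR test of the difference itself: by 9.62 on the log2 scale from E16 to P0 and by 3.15 from E16 to P16, higher in the SOC. The first value rests on 0 counts in all 4 cochlear P0 libraries, so its size is no bound, and DESeq2 gave 5.96. The cause was not tested, and organ, kit and strain cannot be told apart.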

How the results depend on the processing

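The steps of miR-29a-3p in the cochlea were called in 19 of 19 alternatives each, and the rise of miR-29b-3p from E16 to P16 in the SOC in 23 of 23. Counts in the cochlea limit what can be seen there, since a single count is up to 7.79 CPM. A filter of at least 10 counts in every library of the organ leaves no member in either organ and gives no value. Leaving out 1 of the 2 cochlea E16 libraries leaves 1, which is assumed to vary like the other groups. Where a value changed, the cause was not tested.

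Members called at P16 against E16 in the SOC went from 1 to 2 with library totals, with no criterion on overlap, with miR-29a-3p and miR-29c-3p summed and with all 21 libraries in 1 fit, and to 3 with no filter and without set C. Without set C the P16 group is 1 library, replicate 1, assumed to vary like the other groups, so that count rests on it alone. At P16 against P0 in the SOC they went from 1 to 2 with the summed members and to 0 without set A, and at P0 against E16 to 0 without set A. In the cochlea, members called at P0 against E16 went from 2 to 3 with library totals.

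With library totals, the P16 against E16 difference in the cochlea was -0.46 for miR-29a-3p and -0.23 for miR-29c-3p. With all 21 libraries in 1 fit it was 0.0049 for miR-29a-5p. None of these was called.

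With the replicate block, members called at P0 against E16 in the cochlea went from 2 to 1, members called organ by time at P16 against P0 from 0 to 1, and arm ratio calls at P16 against P0 in the SOC from 0 to 1. The block gave 0.10 for miR-29a-5p in the cochlea at P16 against E16, -0.14 for miR-29b-2-5p in the SOC at P16 against P0 and -0.22 for miR-29c-5p organ by time at P16 against E16, none called. For SOC P0 against E16, where all same-numbered libraries correlated, the block changed no call (miR-29b-3p 2.11, adjusted p = 0.00594, edgeR). Outside SOC E16 and P0, deviations of same-numbered libraries correlated at -0.601 to 0.548.

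Without each library in turn, the lowest and highest counts of members called were 1 and 3 (cochlea P0 against E16), 0 and 1 (cochlea P16 against E16), 2 and 4 (cochlea P16 against P0), 0 and 1 (SOC P0 against E16), 1 and 2 (SOC P16 against E16), 0 and 2 (organ by time P16 against E16) and 0 and 1 (organ by time P16 against P0). Arm ratio calls in the SOC ran from 0 to 1 at P16 against E16 and from 0 to 1 at P16 against P0. In the cochlea the log2 difference at P16 against E16 ran from -0.71 to 0.41 for miR-29a-3p, -0.50 to 0.67 for miR-29c-3p and -2.86 to 0.27 for miR-29a-5p. It ran from 0 to 3.15 for miR-29a-5p at P16 against P0 and from -1.49 to 0.54 for miR-29b-1-5p at P0 against E16. In the SOC, miR-29b-2-5p at P16 against P0 ran from -1.06 to 1.00. Organ by time, miR-29c-5p at P16 against E16 ran from -0.24 to 1.17 and miR-29b-2-5p at P0 against E16 from -2.03 to 0.55.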
